A study of Ovis aries with 15 samples.

Results

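The genes described here are 10 that mark the luminal epithelial cells of the mammary gland: the keratins KRT7, KRT8, KRT18 and KRT19, the adhesion proteins EPCAM and CDH1, the lineage factors GATA3, FOXA1 and EHF, and the receptor KIT. They were chosen by symbol, and all 10 were found among the 24691 features of the deposited table. RNA was sequenced from needle biopsies of mammary parenchyma of Romney ewes in late pregnancy (135 ± 2.4 days of gestation, SD) and in lactation (15 ± 1.27 days post partum, SD), as 9 late pregnancy and 6 lactation libraries. Each library is a pool of RNA, of 3 ewes in late pregnancy and 2 in lactation according to the labels. The study's methods differ from the labels here and give lactation pools as many ewes as late pregnancy pools. The ewes themselves were managed and fed alike, and differed in the pasture allowance of their own dams during early gestation. In the HM group the dams grazed ad libitum, in the MM group at maintenance and in the LM group below maintenance, and all 3 groups of dams were then kept at maintenance. Each of the 3 groups holds 3 late pregnancy and 2 lactation libraries. The same flock was biopsied in both states, and the labels do not say which ewes entered which pool.

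The ducts and alveoli of the mammary gland have an inner layer of luminal cells, which make milk, and an outer layer of contractile myoepithelial cells. Keratins form the intermediate filaments of epithelial cells as pairs of a type II protein (KRT7 and KRT8 here) and a type I protein (KRT18 and KRT19 here), and luminal and myoepithelial cells differ in the pairs they use, with KRT5 and KRT14 typical of the outer layer. GATA3, FOXA1 and EHF are transcription factors of luminal cells, and KIT is a receptor tyrosine kinase best known in the gland from luminal progenitor cells.

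Libraries held 7597938 to 19823166 reads on genes in late pregnancy, and the range for lactation was 10352962 to 25679416. Milk protein genes took so many reads in lactation that levels of other genes depend on the scaling. Levels are therefore given as CPM, the read count relative to the library size and scaled by TMM, the trimmed mean of M-values, which sets the bulk of genes level between the states. With unscaled library sizes the median log2 change of all 13345 genes tested was -1.94, against -0.03 with TMM, so each direction below is relative to the bulk of genes. All 7 milk protein genes were higher in lactation with TMM, and 1 of them was called lower with unscaled library sizes. The late pregnancy library of LM pool 2 stood apart in the keratins of skin epidermis: KRT1, KRT2, KRT10 and KRT77 took 4.91% of its keratin reads, 0.545% of those of late pregnancy HM pool 1 and at most 0.241% of those of any other library. The calls of the 9 genes tested between states were the same in direction and side of the threshold without these 2 libraries.

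Between late pregnancy and lactation the luminal genes did not move as a block. KRT19, KRT18 and EPCAM were higher in lactation (with unscaled library sizes all 9 genes tested were lower), KRT7, GATA3 and KIT were lower, KRT8, CDH1 and EHF were not called, and FOXA1 had too few reads to be tested. Of the 9 genes tested, 6 were called (66.7%) at a Benjamini-Hochberg adjusted p under 0.05 by the quasi-likelihood F-test of edgeR, and 68.4% of all genes tested were called, so the luminal genes changed about as often as genes in general. Upward calls made up 33.1% of all genes tested and downward calls 35.2%. The median log2 change of the 9 genes was -0.08, beside -0.03 for all genes. CPM ranges of the states did not overlap for 3 of the 9 genes, KRT7, KRT19 and KIT, and for 40.2% of all genes tested. In bulk tissue, fewer cells of a type and less RNA per cell cannot be told apart.

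**Figure D1:**
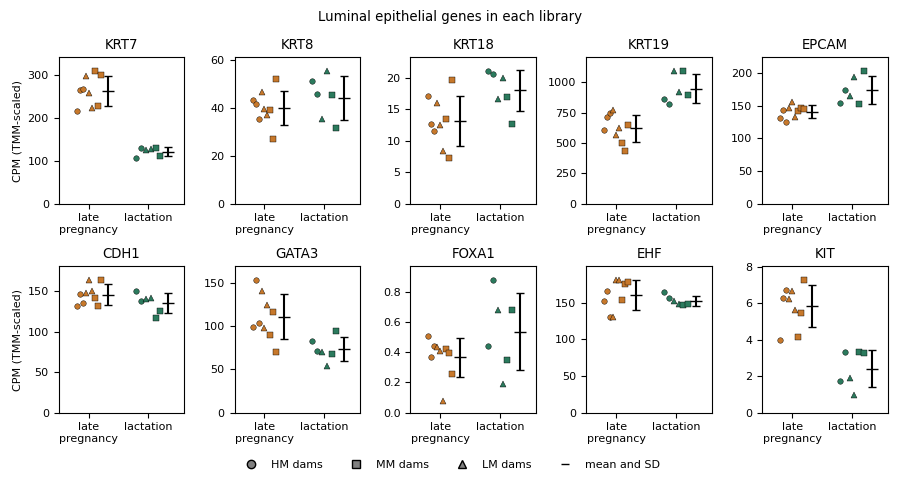
TMM-scaled CPM (linear axes from 0) of the 10 genes in 9 late pregnancy (orange) and 6 lactation (green) libraries, with symbols for the dam nutrition group and bars for mean ± SD. The states separate fully for KRT7, KRT19 and KIT, and FOXA1 stays below 1 CPM in every library.

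KRT7, a type II keratin of simple ductal epithelia, ran from 216 to 309 CPM in late pregnancy (median 264) and from 106 to 129 CPM in lactation (median 126). Every lactation library lay below every late pregnancy library. The means were 262 ± 35.0 (SD, n = 9) and 121 ± 9.94 (SD, n = 6), a log2 change of -1.12 ± 0.09 (SE, edgeR adjusted p = 5.5e-10), or 2.17-fold lower in lactation. It was called in all 15 fits that left out 1 library. KRT7 is annotated on chromosome 3 at 133961975 to 133975095 with 9 exons. Coordinates are as deposited, on the sheep assembly Oar_v3.1 by the submitters' processing notes, while the study's methods name a different version of the sheep genome, so the build is uncertain.

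KRT8, the type II keratin that most luminal cells share, did not follow KRT7. Its level ran from 27.1 to 51.9 CPM in late pregnancy (median 39.6) and from 31.6 to 55.6 CPM in lactation (median 45.8), so the ranges overlapped almost entirely. The log2 change was 0.13 ± 0.13 (SE, edgeR adjusted p = 0.39). KRT8 lies at 133343306 to 133383279 on chromosome 3 with 13 annotated exons, and all of its exon reads were uniquely placed.

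KRT18, the usual type I partner of KRT8, lies beside it on chromosome 3 at 133329818 to 133333286, with 10019 bases between the annotated genes. It ran from 7.23 to 19.6 CPM in late pregnancy (median 12.6) and from 12.6 to 21.1 CPM in lactation (median 18.4), with a wide overlap. The log2 change of 0.43 ± 0.19 (SE) just passed the threshold (edgeR adjusted p = 0.046). Only 4 of the 15 fits that left out 1 library called it, those without late pregnancy HM pool 1, LM pool 1 or MM pool 3 or lactation MM pool 2, and adjusted p over the 15 ran from 0.013 to 0.097. A mean of 90.6% ± 2.53 (SD, n = 9) of its exon reads were uniquely placed in late pregnancy, and on uniquely placed reads alone the change was 0.40 with an adjusted p of 0.06.

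KRT19, the smallest type I keratin, was the most abundant of the 10 genes. Its level ran from 434 to 771 CPM in late pregnancy (median 619) and from 820.0 to 1096 CPM in lactation (median 909), and no lactation library fell within the late pregnancy range. The change was 0.61 ± 0.11 on the log2 scale (SE, edgeR adjusted p = 5.6e-05), 1.52-fold higher in lactation. KRT19 is annotated with 6 exons on chromosome 11 at 41221308 to 41224930, apart from the other 3 luminal keratins.

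How 2 genes changed relative to each other can be read without any scaling from the ratio of their reads within a library, though not the direction of either gene, and 9 such ratios were compared between the states by an exact two-sided permutation test over the libraries with Benjamini-Hochberg adjustment (smallest p possible 0.0004). Of the 9 ratios, 7 had an adjusted p under 0.05, among them FOXA1:GATA3, which rests on few FOXA1 reads. Ratios of other gene pairs were not tested, so no share of all pairs stands beside this count. Of all single genes tested, 68.4% were called between the states, so the count is not particular to these pairs. KRT7 reads per KRT19 read ran from 0.357 to 0.616 in late pregnancy and from 0.114 to 0.157 in lactation, a fall of 3.32-fold (log2 difference -1.73, exact permutation adjusted p = 0.0012, lower in 6 of 6 lactation libraries). KRT8 reads per KRT7 read had a median of 0.157 in late pregnancy and 0.356 in lactation (log2 difference 1.24, exact permutation adjusted p = 0.0012), again without overlap.

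The KRT8:KRT18 ratio fell from a median of 3.06 to 2.46 (log2 difference -0.36, exact permutation adjusted p = 0.00539), with overlapping ranges. The ratio of KRT18 to KRT19, both type I, differed by less than the spread of libraries (log2 difference -0.13, exact permutation adjusted p = 0.554). The KRT8:EPCAM ratio likewise differed by less than that spread (log2 difference -0.16, exact permutation adjusted p = 0.419).

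**Figure D2:**
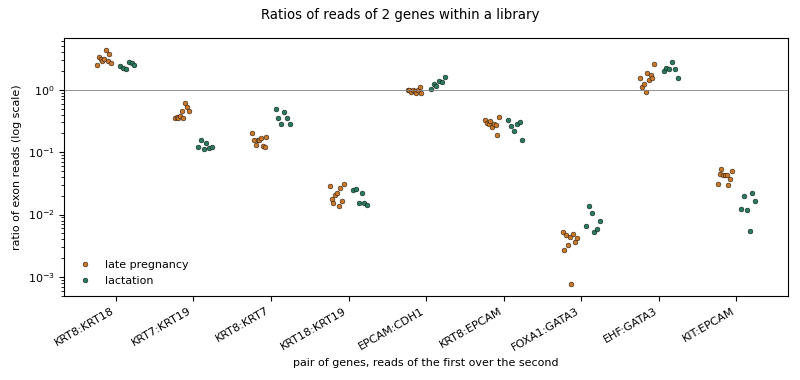
Reads of 1 gene over reads of another in the same library, for 9 pairs, on a log axis, with 1 point per library (orange late pregnancy, green lactation). KRT7:KRT19, KRT8:KRT7 and KIT:EPCAM are the pairs whose states do not overlap, with medians of 0.385 and 0.123, 0.157 and 0.356, and 0.0429 and 0.0142.

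Among all 31 keratin features of the table, the 4 luminal keratins took 80.8% ± 3.28 (SD, n = 9) of keratin reads in late pregnancy and 87.5% ± 0.969 (SD, n = 6) in lactation. No feature carried the symbol KRT15, KRT17 or KRT6A, so these are shares of the keratins named in the table, not of all keratin RNA. The lowest lactation library (86.4%) was above the highest late pregnancy library (85.0%, exact two-sided permutation p = 0.0004, the smallest possible). KRT19 alone rose from 53.4% ± 4.63 to 73.3% ± 1.57 of keratin reads (exact permutation p = 0.0004, n = 9 and 6), while KRT7 fell from 22.8% ± 3.02 to 9.41% ± 0.981 (exact permutation p = 0.0004). The shares of KRT8 (3.46% ± 0.427 and 3.47% ± 0.871, exact permutation p = 0.993, n = 9 and 6) and KRT18 (1.12% ± 0.288 and 1.41% ± 0.341, exact permutation p = 0.102) differed by less than the spread of libraries. Without the 2 libraries with epidermal keratin reads the gain of the 4 luminal keratins was 5.66 percentage points in place of 6.75.

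The keratin pair of myoepithelial cells was compared after its values were seen. Per length, the RPKM of KRT5, a type II keratin, over that of KRT14, a type I keratin, had a median of 2.78 in late pregnancy (1.93 to 3.62) and 0.878 in lactation (0.842 to 1.04), without overlap (log2 difference -1.54, exact two-sided permutation p = 0.0004, n = 9 and 6).

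**Figure D3:**
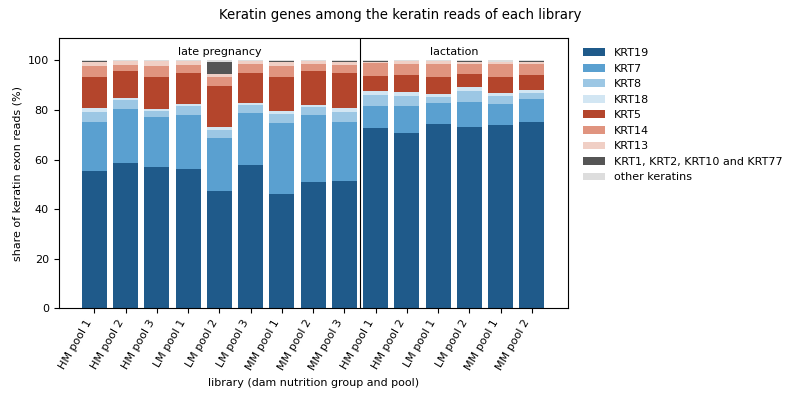
Share of the exon reads on the 31 keratin features of the table (percent) taken by each keratin gene in each library, as stacked bars in 9 late pregnancy and 6 lactation libraries. KRT19 takes 70.6 to 75.0% in lactation and 46.3 to 58.7% in late pregnancy, and the dark segment of epidermal keratins is visible in late pregnancy LM pool 2.

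Of the other 27 keratin features, 7 passed the read filter. KRT5, the type II keratin of myoepithelial cells, fell by 0.90 on the log2 scale (SE 0.12, edgeR adjusted p = 1e-06), and KRT14, its type I partner, rose by 0.61 (SE 0.16, edgeR adjusted p = 0.0022). KRT16, at 0.920 ± 0.458 CPM in late pregnancy (SD, n = 9) and 3.14 ± 2.00 CPM in lactation (SD, n = 6), was higher in lactation (log2 1.84, edgeR adjusted p = 0.00012). KRT13 (log2 -0.54, adjusted p = 0.0098) and KRT24 (log2 -1.22, adjusted p = 0.008) were lower. Of KRT13 exon reads, a mean of 15.7% crossed an exon junction in late pregnancy (25 to 151 reads per library). In lactation it was 2.55% (1 to 3 reads), so the KRT13 change does not describe its spliced reads. KRT24 had 0 to 6 reads per lactation library. KRT10 (log2 -1.32, adjusted p = 0.14) and KRT80 (log2 0.68, adjusted p = 0.063) were not called. At most 3 reads per library lay on 10 of the other keratins, and 2 of these, KRT4 and KRT74, were listed at 0 in every library.

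EPCAM, a membrane protein that joins epithelial cells, ran from 125.5 to 156.5 CPM in late pregnancy (median 144) and from 152 to 204 CPM in lactation (median 169). All 6 lactation libraries lay above the late pregnancy mean, and the ranges overlapped at their edge. The log2 change was 0.30 ± 0.07 (SE, edgeR adjusted p = 0.00056) and was called in 15 of 15 fits that left out 1 library. It depended on the normalization: on the authors' quantile-normalized RPKM plus 1 with limma the log2 change was 0.02 (adjusted p = 0.81), and with upper quartile scaling it was 0.15 (adjusted p = 0.054).

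CDH1, or E-cadherin, the calcium-dependent adhesion protein of epithelial junctions, ran from 131 to 164.5 CPM in late pregnancy (median 147) and from 117 to 150.1 CPM in lactation (median 139). The log2 change of -0.11 ± 0.07 (SE) was not called (edgeR adjusted p = 0.14). Upper quartile scaling (-0.26, adjusted p = 0.0019) and limma on the quantile-normalized RPKM plus 1 (-0.31, adjusted p = 0.00084) called it lower, as did edgeR with TMM when genes needed at least 10 reads in every library (-0.20, adjusted p = 0.013) or no filter was set (-0.16, adjusted p = 0.042). Within libraries, EPCAM reads per CDH1 read rose from a median of 0.981 to 1.28 (log2 difference 0.41, exact permutation adjusted p = 0.00144, n = 9 and 6), a difference that no scaling enters. It may differ with the part of CDH1 counted. Of CDH1 exon reads, 33.5% ± 2.91 (SD, 28.6 to 37.5%) crossed an exon junction in late pregnancy. In lactation 43.2% ± 2.17 did (SD, 40.2 to 46.05%), and for EPCAM the means were 76.4% and 77.7%. The ratio of junction reads alone was not tested.

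GATA3, a zinc finger transcription factor needed for luminal differentiation, ran from 69.7 to 153 CPM in late pregnancy (median 104) and from 54.1 to 94.1 CPM in lactation (median 70.4). The ranges overlapped, and all 6 lactation libraries lay below the late pregnancy mean. The log2 change was -0.59 ± 0.15 (SE, edgeR adjusted p = 0.0013), and all 15 fits that left out 1 library called it. The share of GATA3 exon reads that crossed an exon junction was 10.0% ± 1.26 in late pregnancy (SD, 7.69 to 11.45%). In lactation it was 15.0% ± 1.47 (SD, 13.5 to 17.0%), without overlap. The fall is thus one of all exon reads, and junction reads alone were not tested. GATA3 is also made by T cells: 10 of 11 tested T cell markers fell, with a median log2 change of -1.62, and their summed level ran from 58.9 to 92.7 CPM before lactation and from 20.7 to 29.1 CPM in it. CD3E, a subunit of the T cell receptor complex, was at 17.5 ± 2.29 CPM (SD, n = 9) and 5.56 ± 0.808 CPM (SD, n = 6). The part of T cells in the change of GATA3 was not tested.

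EHF, an ETS family transcription factor of epithelia, had at most 181 CPM in late pregnancy (median 166.5, lowest 130.0) and 147 to 165 CPM in lactation (median 150.0). The log2 change was -0.08 ± 0.08 (SE, edgeR adjusted p = 0.37). It was called lower by limma on the quantile-normalized RPKM plus 1 (-0.35, adjusted p = 0.0031). It was also called lower by edgeR with upper quartile scaling (-0.23, adjusted p = 0.014) and by edgeR on whole gene reads (-0.19, adjusted p = 0.025). EHF reads per GATA3 read rose from a median of 1.52 to 2.17 (log2 difference 0.51, exact permutation adjusted p = 0.0272, n = 9 and 6), a call lost without lactation HM pool 2 (exact permutation adjusted p = 0.0514) or lactation LM pool 2 (0.0655). This ratio may differ with the part of GATA3 counted, given the change in its junction share. For EHF that share was 56.1% in late pregnancy and 58.1% in lactation. The ratio of junction reads alone was not tested.

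FOXA1, a forkhead factor that opens chromatin for hormone receptors, was barely detected. It had 2 to 12 reads per library in late pregnancy and 1 to 6 in lactation, at most 0.507 and 0.879 CPM, and did not pass the read filter. The annotation gives it 2 exons (chromosome 18, 46659257 to 46660665), with 1362 exon bases in a span of 1409. None of its reads crossed the exon junction, which says little on so few reads. FOXA1 reads per GATA3 read rose from a median of 0.00418 to 0.00721 (log2 difference 1.23, exact permutation adjusted p = 0.00144, n = 9 and 6), a ratio that rests on these few FOXA1 reads and on the lower GATA3 level in lactation.

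KIT, the stem cell factor receptor, was the least abundant gene tested. Its level ran from 3.97 to 7.31 CPM in late pregnancy (median 6.26) and from 0.952 to 3.34 CPM in lactation (median 2.58), without overlap. The log2 change was -1.18 ± 0.21 (SE, edgeR adjusted p = 5.3e-05), 2.27-fold lower in lactation, on 69 to 198 reads per late pregnancy library and 5 to 38 per lactation library. KIT reads per EPCAM read fell 3.08-fold (log2 difference -1.62, exact permutation adjusted p = 0.0012, n = 9 and 6).

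Mast cells and melanocytes also carry KIT. The 6 mast cell markers in the table summed to 3.22 to 5.12 CPM in late pregnancy and 2.58 to 5.14 CPM in lactation, most of it SLC18A2, and the defining markers CPA3 and MS4A2 had at most 5 and 1 reads in any library. Of 7 melanocyte markers, DCT and MLANA had at most 1 read in any library, and the summed level, nearly all SOX10, ran from 72.6 to 95.4 CPM in late pregnancy and from 84.7 to 95.1 CPM in lactation. This sum in effect follows SOX10 alone and is no measure of melanocytes by itself. Of the 4 melanocyte genes tested, TYR rose (log2 3.65, edgeR adjusted p = 1.3e-08) and 3 were not called. The part of these cells in the change of KIT was not tested.

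Compared per length, as deposited RPKM within a state, KRT19 stood first in both states, at 656.9 ± 105 in late pregnancy (SD, n = 9) and 292 ± 42.6 in lactation (SD, n = 6). KRT7 was next in late pregnancy, at 265 ± 39.3 RPKM, and only rank 4 in lactation, at 35.4 ± 3.22 RPKM, behind EPCAM (70.0 ± 6.63) and EHF (43.2 ± 3.05). RPKM is not comparable between the states because milk protein reads enter its denominator. Below EPCAM and EHF, the late pregnancy order was GATA3, CDH1, KRT8, KRT18, KIT and FOXA1. GATA3 and CDH1 did not differ beyond their spread, with GATA3 above in 6 of 9 libraries, and in lactation KRT8 was above GATA3 in 4 of 6. FOXA1 came last in both states, at 0.387 ± 0.128 RPKM and 0.163 ± 0.0730 RPKM.

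Reads on introns, taken as whole gene reads less exon reads, gave another readout of the same genes. Of the 7 genes tested on introns, 3 fell in lactation and 0 rose, and 29% of the 10344 genes tested on introns were lower (58% called in either direction). Intron reads of KRT7 fell by 1.27 on the log2 scale (SE 0.14, edgeR adjusted p = 2.3e-08), close to the change of its exon reads. EPCAM intron reads fell by 0.46 (SE 0.10, edgeR adjusted p = 0.00036), although its exon reads rose. EHF intron reads fell by 0.60 (SE 0.08, edgeR adjusted p = 1.9e-06), although its exon reads were not called. Intron reads of KRT8, KRT19, CDH1 and GATA3 were not called (adjusted p = 0.45, 0.36, 0.72 and 0.072), and KRT18, KIT and FOXA1 had too few to test. GATA3 introns were called lower without lactation HM pool 2, late pregnancy HM pool 3 or late pregnancy MM pool 3 (edgeR adjusted p = 0.023, 0.047 and 0.028), and with all libraries when genes needed at least 10 intron reads in each (log2 -0.48, adjusted p = 0.017).

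The ratio of exon to intron reads within a library, a comparison chosen after the values were seen, could be taken for 6 of the genes. For EPCAM it rose from a median of 15.5 (12.0 to 17.1) to 24.8 (at most 26.6) without overlap, a log2 difference of 0.66 (exact two-sided permutation p = 0.0004, n = 9 and 6). A lactation range wholly above that of late pregnancy was seen for 5.09% of the 5821 genes with enough reads, and ranges apart in either direction for 13%. EHF (log2 0.45, exact permutation p = 0.000799) and KRT19 (log2 0.44, exact permutation p = 0.002) also rose, with overlap, whereas KRT7 did not differ beyond the spread (log2 0.07, exact permutation p = 0.535).

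GATA3 (log2 -0.33) and CDH1 (log2 -0.28) fell with an unadjusted exact permutation p of 0.0396 each. Lactation HM pool 1 had 13.2% of its gene reads on introns, against 5.85 to 6.68% in the other lactation libraries and 14.4 to 16.1% in late pregnancy. Without that library the log2 difference of EPCAM was 0.71, that of EHF 0.42 and that of KRT19 0.35, and CDH1 was no longer under 0.05 (log2 -0.23, exact permutation p = 0.0989).

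**Figure D4:**
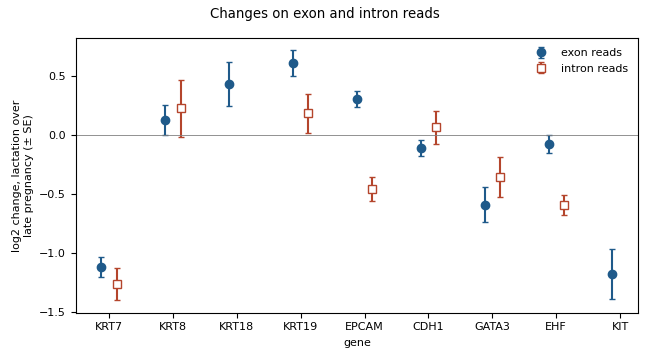
Log2 change from late pregnancy to lactation (± SE, edgeR) on exon reads (filled circles) and intron reads (open squares) for the 9 genes tested on exons, 7 of them also on introns. EPCAM has exon and intron changes of opposite sign (0.30 and -0.46), and for KRT7 both lie below -1.

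The nutrition of the ewes' dams gave no called difference in any luminal gene. Over the 9 late pregnancy libraries, edgeR called 0 of the 9 genes, beside 0% of 13747 genes tested. At an unadjusted p under 0.05 the numbers were 0 genes of the 9 and 4.15% of all genes, and DESeq2 called 0 of the 9 and 20 of all genes. KRT19 had the smallest unadjusted p of the 9 (0.0587), with 688.5 ± 74.4 CPM in HM, 527 ± 108 in MM and 651 ± 107 in LM (SD, n = 3 each, edgeR adjusted p = 1.0).

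The interaction of state and dam nutrition was likewise called for 0 of the 9 genes, with 0% of all genes called by edgeR, 0 of the 9 and 6.56% of all genes at an unadjusted p under 0.05, and 0 of the 9 and 21 of all genes by DESeq2. The log2 ratio of mean KRT19 CPM, lactation over late pregnancy, was 0.29 in HM, 0.92 in MM and 0.63 in LM (edgeR unadjusted p = 0.0501, adjusted p = 0.758). In simulated data of this design, 43 of 100 genes with an interaction of log2 1 were recovered, so differences of that size between the groups could be missed.

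Genes that work with the luminal genes were read from the same fit by lists of known function, with TMM scaling. With unscaled library sizes 23 of the 25 other luminal and epithelial genes, 17 of the 19 anchor genes, 10 of the 11 modification genes and all 12 basal genes named below were lower. Of 25 other luminal and epithelial genes tested, 6 rose, 12 fell and 7 were not called (median log2 -0.29), beside 33.1% of all genes tested that rose, 35.2% that fell and 68.4% called in all. The largest rises were in MUC1, an apical mucin (log2 3.37, from 22.9 ± 2.83 to 236 ± 25.1 CPM, SD, n = 9 and 6), and ESR1, the estrogen receptor (log2 3.03, from 15.8 ± 2.30 to 129 ± 10.8 CPM). ELF5, the ETS factor of the milk-secreting lineage, rose by 0.81 and CLDN7, a tight junction claudin, by 0.49. Falls were seen in GRHL1, a grainyhead factor (log2 -1.46), TFAP2C, an AP-2 factor (log2 -1.26), SPINT1, a protease inhibitor (log2 -0.45), and CLDN4, another claudin (log2 -0.44), all with edgeR adjusted p of at most 0.0019.

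Of 19 desmosomal, plakin and catenin genes, which anchor keratins and bind cadherins, 8 rose, 7 fell and 4 were not called (median log2 -0.06), again beside 33.1% and 35.2% of all genes. PKP2, a desmosomal plakophilin, rose by 2.08 and PLEC, the linker plectin, by 0.86, whereas JUP, plakoglobin, fell from 49.7 to 17.7 CPM and PPL, periplakin, by 0.81 on the log2 scale. CTNNAL1 rose by 2.05 and VCL, vinculin, by 0.54, and DSC2, a desmosomal cadherin, and PNN, pinin, fell by 0.35 and 0.37. CTNNB1, the beta-catenin that binds CDH1, rose by 0.23 (edgeR adjusted p = 0.00034). Of 11 genes listed for keratin modification and turnover, 7 rose, 1 fell and 3 were not called (median log2 0.61, against -0.03 for all genes). TRIM29 at 2.66, KRTCAP3 at 1.56, MAPK14 at 0.96 and EPPK1 at 0.76 were among the rises, and FBF1 was the one that fell (log2 -0.69). The list includes KRTCAP3 and KRTCAP2 (log2 0.61), which are named for keratinocytes and not for an action on keratins. Its counts are therefore not those of keratin modifiers alone.

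Markers of the other cells of the gland moved beside these genes. Of 12 basal and myoepithelial genes, KRT5 and KRT14 included, 7 rose, 3 fell and 2 were not called (median log2 0.35), with SMTN, smoothelin, up by 1.63 and CNN1, calponin, up by 0.80, and ITGB4, an integrin of hemidesmosomes, down with a log2 change of -0.72. Their summed level overlapped between the states, at 885 to 983 CPM and 876 to 1240.0 CPM. Fibroblast markers fell in 6 of 8 cases (median log2 -0.44, summed 496 to 861 CPM and 351 to 552 CPM), with COL1A1 at -1.39. Endothelial markers fell in 7 of 8 (median log2 -0.59, summed 187 to 257 CPM and 115 to 163 CPM), with EMCN at -0.96. The part of these cells in the changes of the luminal genes was not tested.

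For each luminal gene, the tested genes of most similar profile were found by the root mean square difference of centred log2(CPM + 1) values over the 15 libraries. Closest to KRT7 were BTF3 (0.14), RPL3 (0.14) and PEBP1 (0.15), and closest to KRT19 were NAPRT1 (0.15), IRX1 (0.15) and R3HDM4 (0.15). KRT18 had KRT8 as its nearest gene (0.24), whereas KRT8 had ZNF672 (0.16), L3MBTL1 (0.17) and SPG11 (0.19). The nearest genes were TMEM43 for EPCAM (0.10), ZZZ3 for CDH1 (0.08), S1PR1 for GATA3 (0.20), CTDSPL2 for EHF (0.07) and ZNF711 for KIT (0.20).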

How the data were processed

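Pooled RNA of mammary biopsies was sequenced by the authors on an Illumina instrument, and reads were mapped to the sheep genome (Oar_v3.1 in the submitters' processing notes, another version in the study's methods) in CLC Genomics Workbench, a program whose version is not given in the sources used here. The deposited counts, which carry no normalization, give total and unique reads for the exons and the whole of each gene. RPKM as deposited by the authors divides these reads by exon length and by the reads on genes, and was recomputed from the counts to within 3.5e-07 of their size. The authors' normalized values are RPKM after quantile normalization. Deposited fold changes and p-values of the authors' comparison were not used.

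Samples were grouped by the physiological status in the labels. Exon reads (whole gene reads for 5583 features without an annotated transcript) were tested with edgeR 4.0.16 in R 4.3.3: filterByExpr, TMM, quasi-likelihood F-test without covariates, Benjamini-Hochberg adjustment over all genes tested, called at an adjusted p under 0.05. TMM factors sit on exon read totals, so the CPM of a lactation library need not sum to the same total as in late pregnancy. Intron reads were tested alike. Ratios and shares were compared by exact two-sided permutation tests over the libraries, with 0.5 reads added to each count of a ratio, with scipy 1.17.1 (Python 3.11.15, pandas 2.3.3, numpy 2.4.6), and figures were drawn with matplotlib 3.10.9. Alternatives were DESeq2 1.42.0, limma 3.58.1, other scalings, filters and reads, a replicate block, and fits that left out 1 library. On simulated data the comparison of states on 13345 genes recovered 94 of 100 genes changed by log2 1 and 100 of 100 changed by log2 2, with 13 false calls. Most genes were left unchanged in it, unlike the real states, so it does not bear on directions that depend on the scaling. Total reads on genes per library are given with the results. Precision was judged from the spread between pools, which is also what p-values measure. The tests treat the 15 libraries as independent. The same flock was biopsied in both states, so pools of the 2 states may share ewes, and this could not be modelled. No molecular identifiers were used.

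The genes named are the 10 luminal genes, every other keratin that passed the filter, up to 4 called genes per direction of each list with at least 10 CPM by size of change, markers that define a cell type, and the 3 genes of nearest profile. Named outside this rule, after their values were seen, were CITED1, BCL11A, CTNNB1, FBF1, CD14, TYR and the keratins at 0. The luminal genes and all lists were chosen with earlier results of these data known.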

Additional observations from a re-analysis of the deposited data

Results flagged for a closer look

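In 56 groups of 6 or 9 libraries, the highest or lowest value was checked for a gap to its nearest neighbour that is wide for the range of the group, a check that marks about 1 in 20 groups by chance, and 5 values were marked. KRT10, an epidermal keratin, was at 21.2 CPM in late pregnancy LM pool 2, against a group median of 2.01 CPM. In the same library KRT7, KRT8, KRT18 and KRT19 took 73.2% of keratin reads, the lowest share of all. The FOXA1:GATA3 log2 ratio of late pregnancy LM pool 3 was -10.4, on 2 FOXA1 reads. KRT16 was at 7.14 CPM in lactation MM pool 1, against a lactation median of 2.43 CPM. Lactation HM pool 1 had 13.2% of its gene reads on introns, the highest of the lactation libraries.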

How the results depend on the processing

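The number of luminal genes called between states stayed between 5 and 9 over all alternatives run. With unscaled library sizes 0 genes were higher and 9 lower, because every gene shifted with the median of -1.94, and KRT8 (-1.77), KRT18 (-1.47), KRT19 (-1.29) and EPCAM (-1.61) turned negative on the log2 scale, as did the intron reads of CDH1 (-0.56), with 5 genes called on introns. Upper quartile scaling, and limma on quantile-normalized RPKM plus 1 or plus 0.1, each gave 1 higher and 5 lower, and the cause was not tested beyond the shift of the all-gene median with upper quartile scaling (-0.18). KRT18 lost its call in 11 of 15 fits that left out 1 library (log2 changes over all 15 from 0.35 to 0.52, those of the 11 up to 0.45). It was also not called with dam nutrition (adjusted p = 0.051) or lane (0.054) as covariate, on whole gene reads (0.053) or uniquely placed reads (0.06), without a filter (0.077), with at least 10 reads in every library (0.1), with upper quartile scaling (0.18) or by limma on RPKM plus 1 (0.1) or plus 0.1 (0.11). KRT7, KRT19, GATA3 and KIT were called in every alternative that tested them, KRT19 in the other direction with unscaled library sizes. None of the alternatives used junction reads alone. A fit without 1 lactation library leaves its dam nutrition group with a lone lactation library, assumed to vary like the others. Pool numbers are shared between the states, but correlations of the deviations of same-numbered pools from their group means were -0.026 to 0.09, so the numbers were not treated as pairs. With the replicate block 6 luminal genes were called, 3 higher and 3 lower, and 8464 genes in all in place of 9122. For dam nutrition and its interaction with the state, the count of luminal genes called was 0 in every alternative run. EHF:GATA3 was not called on whole gene reads (log2 0.35, exact permutation adjusted p = 0.095), and FOXA1, tested once without the read filter, was not called (log2 0.49, edgeR adjusted p = 0.31). Depth limited FOXA1, KIT in lactation and the intron reads of KRT18.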

Other observations

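Single markers of other cell types rose in lists where the other genes fell or were not called. CIDEA, a lipid droplet protein listed with the adipocyte markers, rose from 29.0 ± 7.58 CPM (SD, n = 9) to 462 ± 42.8 CPM (SD, n = 6), log2 3.99 (edgeR adjusted p = 4.3e-15), while 0 of the 6 adipocyte genes tested fell and 5, among them FABP4 (322 and 333 CPM) and ADIPOQ (10.1 and 7.53 CPM), were not called. Of 11 macrophage genes, 8 fell, with LAPTM5 at -1.33, C1QB at -1.24, AIF1 at -1.16 and C1QC at -1.14 on the log2 scale, whereas CD14, a receptor for bacterial lipopolysaccharide, rose from 4.23 ± 0.866 to 18.4 ± 2.75 CPM (log2 2.13, edgeR adjusted p = 1.8e-11). TYR, the pigment enzyme tyrosinase of the melanocyte list, rose from 0.532 ± 0.366 to 6.04 ± 0.877 CPM (log2 3.65, edgeR adjusted p = 1.3e-08), beside 3 other melanocyte genes tested that were not called and 0 to 1 reads per library for DCT and MLANA.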
